A study of Mus musculus with 6 samples.

Results

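The vacuolar proton pump, the Ragulator complex and the transcription factors of the MiT family were followed in mouse peritoneal macrophages kept with or without R-2-hydroxyglutarate (R-2-HG). Genes were taken by name from the deposited table: all whose symbol begins with Atp6v or Lamtor, pseudogenes left out, together with Tcirg1, Atp6ap1, Atp6ap2, Tfeb, Tfe3, Tfec, Mitf, Flcn, Rraga, Rragc and Rragd. This gave 38 of 34745 genes. Macrophages of C57BL/6 mice received vehicle for 24 h in the control group or R-2-HG at 0.1 mM for 24 h in the treated group, and each group had 3 RNA-seq libraries. Values of single libraries are given in the order of the replicate numbers 1, 2 and 3. The labels name neither the vehicle nor the animal or culture behind a library, so p-values measure the spread between these libraries, which may be technical. R-2-HG is the metabolite made by mutant isocitrate dehydrogenases, and it resembles 2-oxoglutarate.

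The vacuolar H+-ATPase acidifies lysosomes, endosomes and phagosomes. Its V1 sector sits in the cytosol and hydrolyses ATP, and its V0 sector in the membrane carries the protons. Several subunits exist as isoforms from separate genes, and the isoform decides in part which membrane and which cell type the pump serves. On the lysosome surface the pump contacts Ragulator, a scaffold that holds the Rag GTPases, through which amino acids bring the kinase mTORC1 to the lysosome. The MiT factors Tfeb, Tfe3, Tfec and Mitf bind the E-box CACGTG in lysosomal genes, pump genes among them, and Rag GTPases with folliculin (Flcn) govern whether Tfeb and Tfe3 stay in the cytosol. In macrophages this machinery serves the digestion of engulfed material.

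Because the MiT factors read CACGTG, the RefSeq promoter windows of the members (GRCm38.p6, 250 bases before to 50 bases after the start site) were searched for it. The motif equals its own reverse complement, so one search covers both strands. Of the 38 members, 31 had an entry, and Atp6v0a2, Atp6v0d2, Atp6v1b2, Atp6v1c1, Atp6v1g1, Atp6v1h and Lamtor3 had none. The motif stood in a window of 7 of these 31 members (22.6%) and of 2187 of all 27025 genes with an entry (8.09%). Among members expressed highly enough to be tested it was 7 of 24 (29.2%), against 925 of 7291 tested genes with an entry (12.7%). The longer palindrome TCACGTGA, which contains CACGTG, was present for Atp6v0d1, Atp6v0e and Atp6v1a, 3 of 31 members (9.68%) against 304 genes (1.12%). Among tested genes with an entry it was 3 of 24 members (12.5%) against 181 of 7291 genes (2.48%). The 30 bases around each match are shown 5′ to 3′ on the gene's strand with CACGTG in capitals, since MiT factors are known to read these letters.
Atp6v1a, catalytic V1 subunit, chr16:44139373-44139402, minus strand: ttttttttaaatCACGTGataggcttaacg
Atp6v0b, V0 proteolipid, chr4:117887339-117887368, minus strand: ggtCACGTGgggtcggcgcatCACGTGcgc
Atp6v0d1, V0 stalk connector, chr8:105566050-105566079, minus strand: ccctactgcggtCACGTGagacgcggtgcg
Atp6v0e, small V0 subunit, chr17:26676387-26676416, plus strand: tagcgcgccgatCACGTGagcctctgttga
Lamtor1, membrane anchor of Ragulator, chr7:101905757-101905786, plus strand: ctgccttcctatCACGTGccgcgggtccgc
Lamtor4, Ragulator subunit, chr5:138255358-138255387, plus strand: ttaaCACGTGaacagcttttCACGTGtaaa
Rragc, RagC GTPase, chr4:123917309-123917338, plus strand: ggtgattccgggCACGTGatagtaccactt
Atp6v0b and Lamtor4 each carried 2 copies within the printed stretch. The match lay 131 bases before the start site in Atp6v1a, 112 in Rragc and 68 in Lamtor1, while in Atp6v0d1 it began 3 bases before the start site and spanned it, and in Atp6v0e it began 3 bases after it. A match is a description of the letters and not a measured binding site.

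The deposited values are FPKM, fragments scaled to transcript length and library depth. Levels of different genes were set side by side on this scale, within the limits of transcript length and shared reads given below. Depth, read from the steps between low values, was estimated at 13670000 (R-2-HG library 2) to 16600000 fragments (vehicle library 3), and 12817 (R-2-HG library 3) to 15270 genes had a value above 0. The 7 macrophage markers, Lyz2 and Cd68 among them, summed to between 18861 and 25667 FPKM, most of it Lyz2 (16924 to 23901 FPKM). Lyz2, Csf1r, Adgre1, Mertk and Cd14 were the lowest of their group in the libraries numbered 3, where Cd68 was the highest. Itgam read 44.4 FPKM in R-2-HG library 1 and 88.4 to 113 FPKM in the others. The B cell marker Ighm read 32.4 FPKM in vehicle library 1 and 4.56 to 8.03 FPKM in the others. The 5 fibroblast markers summed to 83.9 and 70.9 FPKM in the libraries numbered 1 of vehicle and R-2-HG, 22.8 and 11.7 FPKM in those numbered 2 and 3.59 and 3.89 FPKM in those numbered 3. The 5 mast cell markers, listed because mast cells use Mitf, summed to between 0.00527 and 2.27 FPKM, and Mcpt4 was at 0 in all libraries but one. In bulk RNA, fewer cells of a type and less RNA per cell cannot be told apart.

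Of the 38 members, 31 reached 1 FPKM on average over the 6 libraries and were tested. They were 8 of 13 genes of V1, 8 of 10 of V0, and all accessory, Ragulator, Rag, Flcn and MiT genes. The untested 7 were all alternative isoforms. Atp6v1b1, Atp6v1c2, Atp6v1e2, Atp6v1g3 and Atp6v0a4, isoforms best known from kidney, testis or other epithelia, were listed at 0 in all 6 libraries. Atp6v1g2, best known from neurons, was listed between 0.172 and 0.542 FPKM and Atp6v0e2 between 0 and 0.302 FPKM. A listed 0 need not mean absence, because Rps29, a ribosomal protein gene that every cell uses, was itself listed between 0 and 0.707 FPKM. Of 80 ribosomal protein gene symbols 1 was at 0 in all libraries and 4 in at least 1. Of 12 housekeeping genes, 0 were at 0 in any library. When the 31 tested members were ordered by mean, the ranges of 24 of 30 neighbouring pairs overlapped, and a gap followed Atp6v0d2, Atp6v1c1, Atp6v1d, Lamtor5, Lamtor3 and Tfeb.

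**Figure D1:**
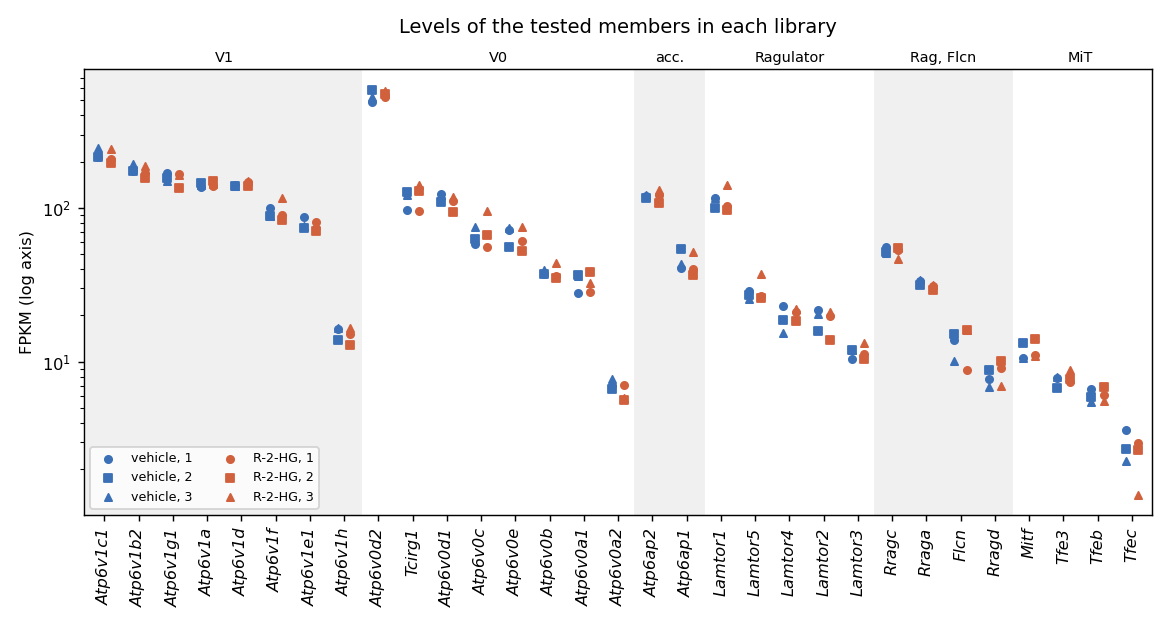
FPKM (log axis) of the 31 tested members in each of 6 libraries, grouped by role; blue is vehicle, red is R-2-HG, and the marker shape gives the replicate number. Atp6v0d2 stood above all other members in every library (487 to 588 FPKM), and blue and red points overlap for every member.

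In the V1 sector each subunit had 1 gene with a tested level, and the other isoforms of subunits B, C and E were listed at 0, which need not mean absence. Subunit B, which shares the nucleotide-binding ring with subunit A, came from Atp6v1b2, at 173, 175 and 192 FPKM under vehicle against 168, 157 and 186 FPKM under R-2-HG. Subunit C, which joins the stator stalks, came from Atp6v1c1, at 213, 214 and 246 FPKM under vehicle against 208, 196 and 243 FPKM under R-2-HG. In both genes vehicle library 3 was the highest and R-2-HG library 2 the lowest, and the groups overlapped. Subunit E, a stator part, came from Atp6v1e1, at 87.9, 74.1 and 76.0 FPKM under vehicle against 80.6, 70.3 and 77.3 FPKM under R-2-HG. Subunit G, its stator partner, came almost wholly from Atp6v1g1, at 169, 157 and 150.3 FPKM under vehicle against 165, 134 and 164 FPKM under R-2-HG. Atp6v1g2 made up 0.155 ± 0.0529% of the family's summed FPKM under vehicle against 0.281 ± 0.0647% in R-2-HG (SD, n = 3 each), overlapping. The Atp6v1g2 value is uncertain, since its exons overlap Nfkbil1 on the opposite strand and strand handling is not given in the sources used here.

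The V1 genes without a second isoform lay in the same range, except for one. The catalytic subunit gene Atp6v1a averaged 141 ± 4.2 FPKM under vehicle against 143 ± 5.64 FPKM under R-2-HG (SD, n = 3), and the rotor subunit gene Atp6v1d 139 ± 1.10 and 145 ± 6.14 FPKM. Atp6v1f, another rotor part, averaged 92.4 ± 6.59 and 96.6 ± 17.2 FPKM. Atp6v1h, which encodes the subunit that in yeast keeps free V1 from hydrolysing ATP, was the lowest of the tested V1 genes in every library, at 12.9 to 16.7 FPKM. Its levels did not overlap those of the next V1 gene, Atp6v1e1 (70.3 to 87.9 FPKM).

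In the V0 sector 2 subunits were drawn from more than 1 expressed gene. For subunit d, which couples the rotor to the proteolipid ring, Atp6v0d2 stood at 487, 588 and 523 FPKM under vehicle against 524, 546 and 577 FPKM under R-2-HG. Atp6v0d2, known from osteoclasts and macrophages, was the most abundant member, at rank 46 of 34745 genes by mean. Its sister Atp6v0d1, the widely expressed form, stood at 122, 109.8 and 121 FPKM under vehicle against 110.2, 93.7 and 118 FPKM under R-2-HG. Within each library Atp6v0d2 exceeded Atp6v0d1 by 3.98-fold to 5.83-fold. Atp6v0d2 made up 81.8 ± 2.23% of the family in vehicle and 83.7 ± 1.47% in R-2-HG (SD, n = 3). In each of the 3 pairs that share a replicate number its share was higher under R-2-HG, by 1.88 percentage points on average, but the groups overlapped (exact permutation test, two-sided, p = 0.3, adjusted p = 0.933 over 12 shares). With 3 against 3 libraries this test, which ignores the pairs, cannot go below 0.1. A sign-flip test over the 3 pairs cannot go below 0.25, and its adjusted p was 0.857.

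For subunit a, the membrane-embedded subunit through which protons pass, 3 of 4 genes were expressed. Tcirg1, the form of lysosomes and of the osteoclast's resorbing membrane, stood at 97.3, 127 and 122 FPKM under vehicle against 95.6, 129 and 142 FPKM under R-2-HG. Both libraries numbered 1 were the lowest, and these also held the most fibroblast marker RNA, whose part in the result was not tested. Atp6v0a1, best known from neurons, stood at 27.8, 36.8 and 36.1 FPKM under vehicle against 28.5, 38.1 and 32.7 FPKM under R-2-HG, again lowest in the libraries numbered 1. The library numbered 1 was the lowest in both groups for 4 of 31 members (12.9%), against 14.9% of 3417 genes that averaged 10 FPKM or more. Atp6v0a2, an isoform of the Golgi and early endosomes, stood at 6.97, 6.65 and 7.70 FPKM under vehicle against 7.09, 5.64 and 5.82 FPKM under R-2-HG. Tcirg1 took 74.0 ± 0.534% of the family in vehicle and 75.4 ± 2.94% in R-2-HG, Atp6v0a1 21.4 ± 0.346% and 20.6 ± 2.16%, and Atp6v0a2 4.60 ± 0.694% and 3.97 ± 1.25% (SD, n = 3). In R-2-HG library 3 the Tcirg1 share was 78.6%, above the 72.9% to 74.7% of the other 5 libraries, and the Atp6v0a1 share was 18.1%, below their 21.1% to 22.0%. For each of these shares the groups overlapped (exact permutation p of 0.6 or more, adjusted p of 0.933 or more). The difference in the Tcirg1 share, 1.46 percentage points, was above the SD of vehicle and below that of R-2-HG.

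The other V0 subunits had 1 expressed gene each. The proteolipid genes Atp6v0c and Atp6v0b, whose products form the rotating ring, averaged 65.5 ± 8.34 and 38.0 ± 1.41 FPKM under vehicle against 72.4 ± 20.5 and 38.5 ± 4.83 FPKM under R-2-HG (SD, n = 3). For Atp6v0c, R-2-HG library 3 was the highest of all at 95.2 FPKM, and reads of this gene can be shared with near-identical pseudogenes. Atp6v0e, a small membrane subunit, stood at 72.3, 56.0 and 74.1 FPKM under vehicle against 61.3, 52.1 and 74.8 FPKM under R-2-HG, lowest in both libraries numbered 2. Atp6v0e2 made up 0.490% of that family or less in every library. Of the accessory genes, Atp6ap2, which also encodes the prorenin receptor, averaged 119 ± 2.56 and 120.3 ± 11.2 FPKM, and Atp6ap1, an assembly factor for V0, 45.8 ± 7.28 and 42.7 ± 7.91 FPKM.

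**Figure D2:**
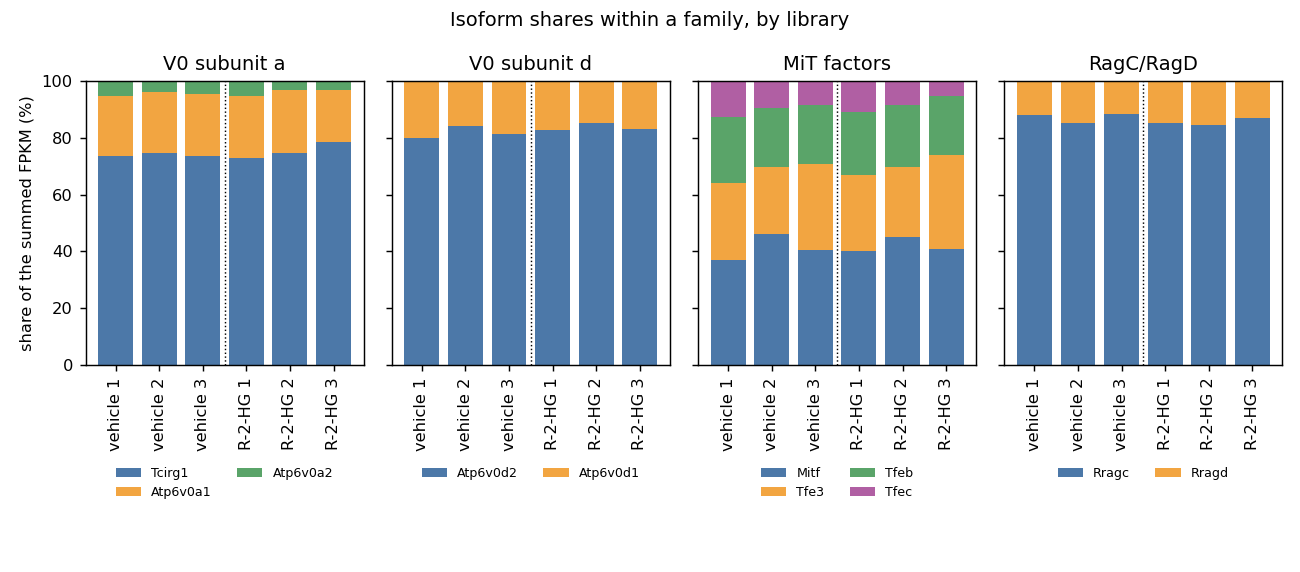
Share of each isoform in the summed FPKM of its family (percent, stacked to 100) in each of 6 libraries, for V0 subunits a and d, the MiT factors and RagC with RagD; the dotted line parts vehicle from R-2-HG. Tcirg1 and Atp6v0d2 hold the largest share of their family in every library of both groups.

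The Ragulator subunits were unequal in listed FPKM, and Lamtor1, Lamtor3 and Lamtor5 have near-identical pseudogenes. Lamtor1, the lipid-anchored subunit that wraps the others, averaged 110.4 ± 9.67 FPKM under vehicle against 113 ± 23.8 FPKM under R-2-HG (SD, n = 3). The remaining 4, which form the Lamtor2 with Lamtor3 and the Lamtor4 with Lamtor5 dimers, lay between 10.4 and 37.2 FPKM. Lamtor5 stood at 28.7, 27.2 and 25.6 FPKM under vehicle against 26.9, 25.9 and 37.2 FPKM under R-2-HG, where R-2-HG library 3 alone was high. Lamtor4 stood at 23.2, 18.7 and 15.4 FPKM under vehicle against 21.1, 18.3 and 22.0 FPKM under R-2-HG, so that the groups overlapped throughout. Lamtor2 averaged 19.3 ± 3.0 and 18.2 ± 3.93 FPKM. Lamtor3 averaged 11.4 ± 0.888 and 11.6 ± 1.44 FPKM, but part of its reads can be shared with the pseudogene Gm5900, which matches it at 99.5% over 375 bases and was listed at 15 to 22.7 FPKM, while the longest Lamtor3 transcript has 2726 bases.

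Among the Rag GTPases the level of RagC exceeded that of RagD. A Rag dimer pairs RagA or RagB with RagC or RagD. Rraga stood at 33.6, 31.6 and 33.9 FPKM under vehicle against 31.2, 29.2 and 31.7 FPKM under R-2-HG, and was lower under R-2-HG in every pair, although the groups overlapped. RagB was rare, with Rragb, which is not a member here, at 0.366% to 2.25% of the RagA and RagB sum. Rragc stood at 56.1, 51.6 and 51.0 FPKM under vehicle against 53.0, 55.3 and 46.7 FPKM under R-2-HG. Rragd, known as a target of MiT factors, stood at 7.74, 8.87 and 6.81 FPKM under vehicle against 9.14, 10.1 and 6.97 FPKM under R-2-HG. The Rragd share of the RagC and RagD sum was 12.9 ± 1.58% in vehicle and 14.4 ± 1.26% in R-2-HG, higher in all 3 pairs with overlapping groups (exact permutation, ignoring the pairs, p = 0.2, adjusted p = 0.933). Flcn, the activator of GTP hydrolysis on RagC and RagD, ranged from 8.82 to 16 FPKM, with R-2-HG library 1 the lowest.

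All 4 MiT factors were expressed, with Mitf the most abundant. Mitf, which also directs osteoclast, mast cell and pigment cell genes, stood at 10.5, 13.2 and 10.6 FPKM under vehicle against 11, 14.0 and 10.8 FPKM under R-2-HG. Both libraries numbered 2 were the highest, and the groups overlapped. Tfe3 stood at 7.85, 6.72 and 7.92 FPKM under vehicle against 7.37, 7.68 and 8.87 FPKM under R-2-HG. Tfeb, the best studied activator of lysosome genes, stood at 6.67, 5.94 and 5.46 FPKM under vehicle against 6.09, 6.81 and 5.57 FPKM under R-2-HG. Tfec, the form of the myeloid lineage, stood at 3.58, 2.71 and 2.25 FPKM under vehicle against 2.96, 2.69 and 1.36 FPKM under R-2-HG. It was lower in all 3 pairs, though nearly equal in the pair numbered 2, and the groups overlapped. The order Mitf, Tfe3, Tfeb and Tfec held in every library, but the ranges of Tfe3 and Tfeb over the 6 libraries overlapped. Mitf took 41.1 ± 4.76% of the family's FPKM under vehicle against 41.9 ± 2.66% in R-2-HG, Tfe3 27.1 ± 3.34% and 28.3 ± 4.51%, Tfeb 21.6 ± 1.44% and 21.6 ± 0.661%, and Tfec 10.2 ± 2.07% and 8.17 ± 2.86% (SD, n = 3). The exact permutation p of these 4 shares was 0.5 or more (adjusted p of 0.933 or more).

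**Figure D3:**
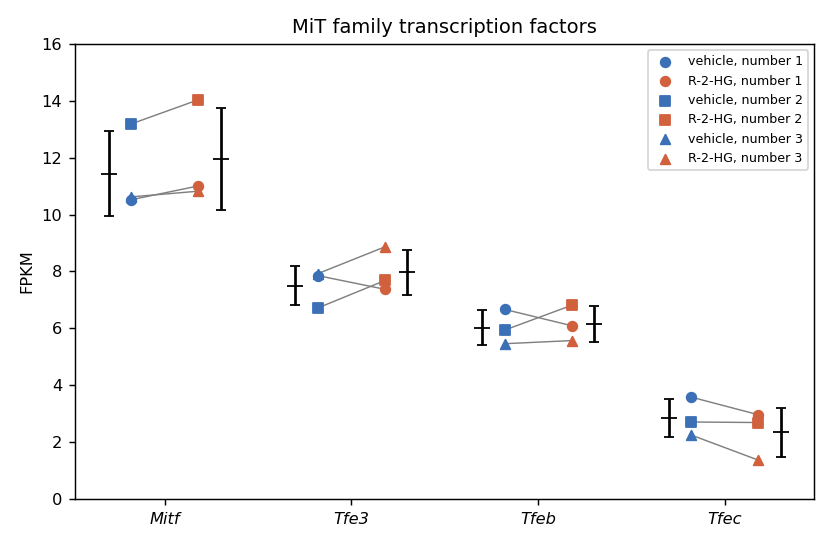
FPKM of the 4 MiT factors; points are libraries, shapes and grey lines mark the replicate number, and the black bars at the sides give the mean ± SD of 3 libraries. Lines for Tfec all slope down, that of number 2 hardly, and those for Mitf up, within overlapping groups.

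The comparison of R-2-HG with vehicle called no member. Of 31 tested members, 0 passed at an adjusted p under 0.05 (limma on log2(FPKM + 1), smallest adjusted p = 0.99998), as did 0% of the 9701 genes tested. At an unadjusted p under 0.05 the count was also 0 members, against 1.44% of all genes (0.691% higher and 0.752% lower), and the smallest unadjusted p of a member was 0.208. The 3 libraries of one group stood clear of the other for 0 members, against 4.69% of all genes (2.03% higher and 2.66% lower). The median change over the 31 members was 0.01 on the log2(FPKM + 1) scale, with 17 higher and 14 lower means, and -0.004 over all genes. In all 3 pairs 3 members were higher (Atp6v1a, Mitf and Rragd) and 6 were lower (Atp6v0d1, Atp6v1b2, Atp6v1c1, Atp6v1h, Rraga and Tfec), 9.68% and 19.4% of the members against 11.7% and 11.8% of all genes.

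The lowest p in each direction belonged to genes of different parts of the machinery. Toward lower means these were Atp6v0a2 with a log2 change of -0.18 (SE 0.13), Atp6v0d1 with -0.14 (SE 0.12) and Rraga with -0.10 (SE 0.094). Toward higher means they were Rragd with 0.14 (SE 0.16), Lamtor5 with 0.12 (SE 0.15) and Lamtor4 with 0.11 (SE 0.16). All 6 had an adjusted p of 0.99998 (limma). The widest change was that of Tfec, -0.23 (SE 0.23), which came to -0.32 with a pseudocount of 0.1 and -0.10 with a pseudocount of 5. Without R-2-HG library 2 the change was -0.047 for Atp6v0d1 and 0.036 for Rragd, and without R-2-HG library 3 it was -0.21 and 0.28. By role, the median log2 change was -0.05 over 8 V1 genes, -0.004 over 8 V0 genes, 0.02 over 5 Ragulator genes and 0.04 over 4 MiT factors.

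The 95% intervals of the 31 members lay between -0.76 and 0.60 on the log2(FPKM + 1) scale. For 26 members (83.9%) the interval stayed within 0.5 of 0, against 60.2% of all genes tested. Among genes that averaged 10 FPKM or more it was 23 of 26 members (88.5%) and 77.7% of 3417 genes. All 8 tested V1 genes had intervals within 0.5 of 0, and Atp6v0c, Lamtor2, Flcn, Rragd and Tfec had wider intervals. These intervals ignore the replicate number. A blocked fit treats same-numbered libraries as pairs, and there the interval stayed within 0.5 of 0 for 29 members (93.5%), all but Flcn and Tfec, and for 75.2% of all genes tested. The blocked SE was 0.094 for Atp6v0c, against 0.20 without the block, and 0.085 for Lamtor2, against 0.18.

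**Figure D4:**
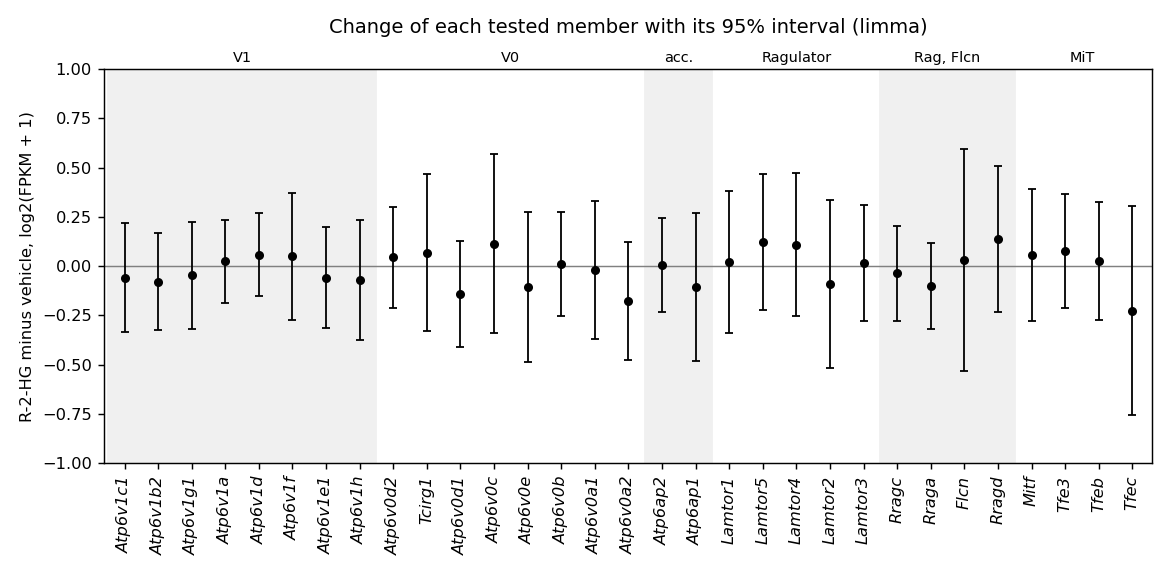
Change of each of the 31 tested members, R-2-HG minus vehicle on the log2(FPKM + 1) scale, with the 95% interval from limma, grouped by role. Every interval crosses 0, and the widest belong to Tfec and Flcn.

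Members lay apart in R-2-HG libraries 2 and 3. R-2-HG library 2 held the lowest value of 17 of 31 members (54.8%), against 24.0% of the 3417 genes that averaged 10 FPKM or more. R-2-HG library 3 held the highest value of 11 members (35.5%), against 25.5% of those genes. Of the 31 members, 26 averaged 10 FPKM or more. Vehicle libraries shared part of the order. The library numbered 2 was the lowest in both groups for 8 members (25.8%), against 14.8% of those genes. The library numbered 3 was the highest in both groups for 8 members (25.8%), against 14.9% of those genes. The members' median deviation from their own mean was -0.12 in R-2-HG library 2 and 0.11 in R-2-HG library 3, and between -0.043 and 0.023 in the other 4 libraries, on the log2(FPKM + 1) scale. For the 3417 genes it lay between -0.017 and 0.023 in all 6. R-2-HG library 2 had the fewest estimated fragments and R-2-HG library 3 the fewest genes above 0, and the part of either in this pattern was not tested. R-2-HG library 3 stood above R-2-HG library 2 for 23 of 31 members: 7 of 8 V1 genes, 7 of 8 V0 genes, both accessory genes, all 5 Ragulator genes, Rraga and Tfe3. Lamtor1, for example, read 97.4 FPKM in R-2-HG library 2 against 141 FPKM in R-2-HG library 3. The order was turned for 8 members, which were the pump genes Atp6v1a (149 and 143 FPKM) and Atp6v0a1 (38.1 and 32.7 FPKM) together with Rragc, Rragd, Mitf, Tfeb, Tfec and Flcn, the last nearly equal in both. This pattern was noticed in the values and is given as a description.

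**Figure D5:**
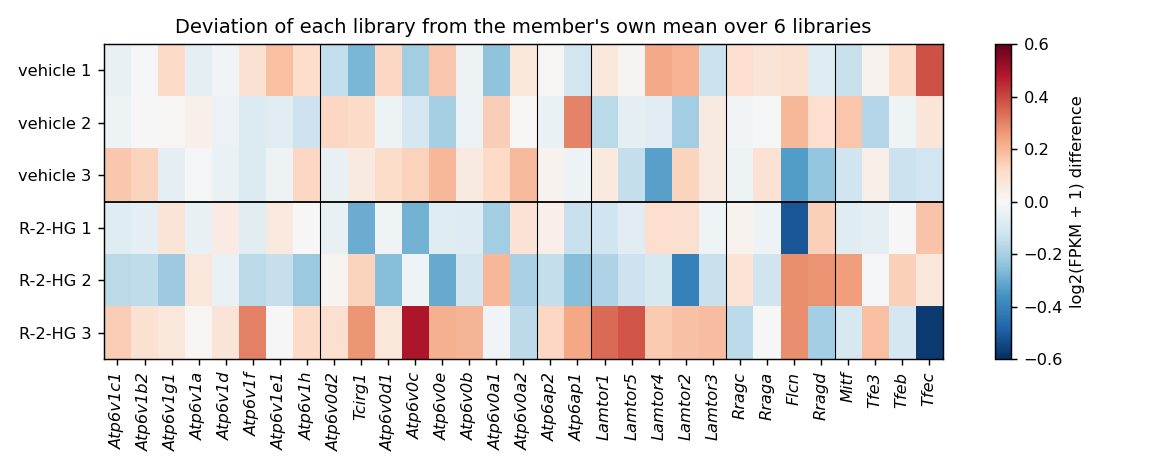
Difference of each library from the member's mean over 6 libraries, on the log2(FPKM + 1) scale (red higher, blue lower), with members ordered by role and the black line parting vehicle from R-2-HG. The row of R-2-HG library 2 is mostly blue and that of R-2-HG library 3 mostly red.

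Partners of this machinery outside the gene set did not pass either. Of 52 listed genes of lysosomal mTORC1 control and pump assembly, 43 were tested and 0 passed with limma, also 0 at an unadjusted p under 0.05, with 22 higher and 21 lower means (median log2 change 0.01). Both Wdr24 and Wdr59, subunits of the GATOR complex that answers to amino acids, were lower without overlap. Wdr24 averaged 3.51 ± 0.0723 FPKM under vehicle against 3.01 ± 0.292 FPKM under R-2-HG, and Wdr59 3.32 ± 0.0869 and 2.84 ± 0.294 FPKM (SD, n = 3; adjusted p = 0.99998, limma). These 2 of 43 stand beside 2.66% of all genes that were lower without overlap. In the other direction Tbc1d7, a part of the TSC complex, averaged 3.85 ± 0.592 and 5.04 ± 1.26 FPKM, and Tldc1 5.13 ± 0.630 and 5.99 ± 0.942 FPKM.

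Of 31 genes taken as examples of the lysosomal network that MiT factors control, 30 were tested and 0 passed with limma, also 0 at an unadjusted p under 0.05, with 16 higher and 14 lower means (median 0.001). Naglu, a lysosomal enzyme of heparan sulfate breakdown, had the lowest p, at 55.8, 58.7 and 59.4 FPKM under vehicle against 34.5, 57.3 and 45.9 FPKM under R-2-HG (log2 change -0.36, SE 0.17, adjusted p = 0.99998, limma). R-2-HG libraries 1 and 3 lay below all vehicle libraries and R-2-HG library 2 among them. The Naglu change was -0.17 without R-2-HG library 1 and -0.53 without R-2-HG library 2. Sgsh, of the same pathway, averaged 7.22 ± 0.909 and 5.76 ± 3.63 FPKM, with R-2-HG library 1 at 2.30 FPKM. Toward higher means, the autophagy gene Uvrag averaged 17.6 ± 1.71 and 19.0 ± 0.911 FPKM and the protease gene Ctsa 138 ± 7.23 and 147 ± 15.5 FPKM.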

How the data were processed

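The authors deposited 1 table of FPKM values for 34745 genes, with 1 column per library. The submitters' processing notes name Bowtie 0.12.2, Cuffdiff and the builds mm10 and mm8, with their roles unstated. How strand was handled, and with which annotation, is not given in the sources used here. An FPKM value keeps no counts, so no count test was run. Depth was estimated from single-transcript genes over 1000 bp (GENCODE M21, GRCm38), where 95.7% to 96.7% of low values came within 0.1 of whole fragments.

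The 9701 genes averaging 1 FPKM or more were compared by limma 3.58.1 (R 4.3.3), after log2(FPKM + 1) (trend, robust, two-sided, Benjamini-Hochberg over all genes, threshold 0.05). Fold changes on this scale understate those of low genes. Isoform shares were compared by exact permutation (scipy 1.17.1).

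Members and lists were chosen with earlier results of these data known. Values in every library are given for expressed isoforms, MiT factors and the 3 members of lowest p per direction. From each pathway list, the 2 of lowest p per direction are named, and Castor1 and Castor2 found no symbol in the table. Atp6v0c, Atp6v1h, Flcn, Lamtor1 and others were singled out after their values were seen. Exons of Atp6v0a2, Atp6v0b, Atp6v1e1, Atp6v1h, Lamtor1 and Rragc overlap a gene on the opposite strand, and Atp6ap2, Atp6v0c, Atp6v1f, Atp6v1g1, Lamtor1, Lamtor3 and Lamtor5 have pseudogenes at 95% identity or more over 200 bases (BLAST 2.17.0), so these values are uncertain. Same-numbered libraries deviated together (correlations 0.54, 0.37 and 0.36 across genes). The numbers were therefore taken to pair the libraries in the blocked alternatives and wherever pairs are named. The main limma fit and the exact permutation of shares did not use the pairs. No label states this pairing, which was read from these same values.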

Additional observations from a re-analysis of the deposited data

How the results depend on the processing

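No member was called under any of 14 alternative fits: pseudocounts of 0.1 and 5, no filter on low values (33 members tested), a mean of at least 5 FPKM (30 tested), quantile or median-ratio scaling, limma without trend and robust estimation, the replicate block, and each of 6 libraries left out. With the replicate number as a block, 0 members and 0 genes passed, at 329 genes with an unadjusted p under 0.05 against 140 without it, and the block changed no call. Apart from libraries left out, no alternative turned the sign of a member's change or of a share. The median change of the members lay between 0.0096 and 0.018 under the scaling and pseudocount alternatives, and between -0.072 (without R-2-HG library 3) and 0.034 when 1 library was left out. The number of all genes called then lay between 0 and 1.

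Leaving out 1 library turned the sign of 24 of 31 members, none of them called: 11 without R-2-HG library 3, 9 without R-2-HG library 2, 7 without vehicle library 1, 5 each without vehicle libraries 2 and 3, and 2 without R-2-HG library 1. The log2 change then lay between -0.017 and 0.12 for Atp6v0d2, -0.053 and 0.080 for Atp6ap2, -0.37 and 0.0058 for Tfec, -0.098 and 0.29 for Atp6v0c, -0.037 and 0.093 for Tfeb, -0.087 and 0.15 for Atp6v1f, -0.036 and 0.22 for Lamtor5, -0.097 and 0.051 for Atp6v1g1, -0.15 and 0.022 for Atp6v1h, -0.10 and 0.018 for Atp6v1e1, -0.14 and 0.12 for Lamtor1, -0.049 and 0.24 for Tcirg1, -0.15 and 0.0092 for Atp6v1c1, -0.13 and 0.29 for Flcn, -0.24 and 0.017 for Atp6v0e, -0.14 and 0.081 for Atp6v0a1, -0.027 and 0.25 for Lamtor4, -0.25 and 0.018 for Atp6ap1, -0.072 and 0.088 for Lamtor3, -0.086 and 0.033 for Rragc, -0.088 and 0.068 for Atp6v0b, -0.0035 and 0.053 for Atp6v1a, -0.22 and 0.091 for Lamtor2, -0.056 and 0.15 for Mitf, and -0.83 and 0.010 for Sgsh. Without a turned sign it lay between -0.21 and -0.047 for Atp6v0d1, 0.036 and 0.28 for Rragd, -0.13 and -0.067 for Rraga, -0.27 and -0.12 for Atp6v0a2, -0.15 and -0.023 for Atp6v1b2, 0.034 and 0.093 for Atp6v1d, 0.0079 and 0.13 for Tfe3, -0.53 and -0.17 for Naglu, and 0.14 and 0.40 for Tbc1d7. Sgsh, Naglu and Tbc1d7 are from the pathway lists and are not members. The difference in share, in percentage points, lay between -1.52 and 0.421 for Atp6v0a1, -0.152 and 2.72 for Tcirg1, -0.00227 and 0.243 for Atp6v0e2, -0.395 and 0.854 for Tfeb, -1.31 and 3.04 for Tfe3, and -1.42 and 3.30 for Mitf. For Atp6v0d2 it stayed between 0.945 and 3.12 and for Rragd between 0.982 and 2.43. The cause was not tested. With these depths a 2 kb transcript gains 0.0301 to 0.0366 FPKM per fragment, so differences of that size in Atp6v0e2 and Atp6v1g2 were not detectable.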

Other observations

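Transcript length, in classes chosen after the values were seen, went with which library held the highest value of a gene. Of 6 tested members whose longest transcript is under 1200 bp, R-2-HG library 3 held the highest value of 3 and vehicle library 1 that of the other 3. Of the 25 longer members, R-2-HG library 3 held the highest value of 8 and vehicle library 1 that of 4. Among 391 short genes with a mean of 10 FPKM or more these libraries held the highest value of 33.8% and 32.7%. Among 3020 longer genes of that level the shares were 24.3% and 20.1%. R-2-HG library 1 also held the highest value of more short than longer genes (16.4% and 10.2%). The opposite held for R-2-HG library 2 (4.09% and 21.3%), vehicle library 2 (3.32% and 9.21%) and vehicle library 3 (9.72% and 14.9%). For the 6 members the median of R-2-HG library 3 minus the mean of the other 5 libraries was 0.23 on the log2(FPKM + 1) scale. For the 25 longer members the median was 0.11. Among genes that averaged 10 FPKM or more, it was 0.11 for the short ones and 0.006 for 3020 longer genes. No test was made of this pattern.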
